A study of Mus musculus with 4 samples.

Results

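Arterial endothelial cells that carry transcripts of Htra1 and Nkx2-3 were followed in single-cell RNA profiles of mouse embryos at embryonic day 10.5. Htra1 encodes a secreted serine protease, and Nkx2-3 a homeobox transcription factor of vascular and visceral tissue. The cells were chosen by the unique molecular identifiers (UMIs, tags that each mark 1 captured RNA molecule) counted in them. A cell was taken when it had at least 1000 detected genes, under 10% mitochondrial UMIs, at least 1 UMI of Cdh5 and of Gja5, at least 2 UMIs of Htra1 and Nkx2-3 together, and none of Runx1. This gate held 801 of the 20836 cells that passed the gene and mitochondrial limits, and these are called the gated cells here.

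All cells were sorted as CD31-positive and CD45-negative from the aorta-gonad-mesonephros region, where the dorsal aorta gives rise to blood stem cells. A pair of libraries came from wild-type (WT) embryos and a pair from embryos of genotype mir-223 -/- (KO), all of the same age, profiled with the 10x Genomics 3' kit, version 3. Neither the number of embryos pooled in a library nor the litters they came from are in the labels, so a p-value here reflects only how far these particular libraries spread, which may be technical. The KO embryos lack miR-223, a microRNA of myeloid blood cells, whose mature strand is shown because it is what the genotypes differ in, with its seed (bases 2 to 8) in capitals. The sequence is from RefSeq (GRCm38.p6, chrX:96242884-96242905, plus strand).
miR-223-3p: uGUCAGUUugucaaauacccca

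Cdh5 encodes the adherens junction cadherin of endothelium, and Gja5 a gap junction protein of arterial endothelium. Arterial identity is set up by Notch signalling and SoxF factors, and arteries in which blood flows then gain flow-responsive genes and an elastic wall. Runx1 is the factor that starts blood formation from the aortic wall, so the gate leaves out cells in which it was detected. Of the markers listed with these cells, Tmem100 encodes a membrane protein downstream of BMP and ALK1 signalling, Vwf the clotting protein stored in endothelial granules, Ltbp4 a binding protein of latent TGF-beta in elastic fibres, and Pde3a a phosphodiesterase of cyclic nucleotides.

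The gated cells numbered 56 and 300 in the WT libraries (replicates 1 and 2) and 199 and 246 in the KO libraries (replicates 1 and 2). Their median depths were 22368.5, 11724.5, 12922 and 13252.5 UMIs, below those of the other cells with Cdh5 and Gja5 (25626, 16417, 17613 and 16796). Median mitochondrial shares lay between 6.15% and 7.38% in the gated cells and between 5.53% and 6.57% in the others. A score against simulated doublets called 7, 44, 20 and 49 of the gated cells, which were kept unless stated. Libraries shared 8 to 28 cell barcodes in pairs, and no gated cell's barcode was shared. KO replicate 1 stood apart: Xist, the RNA of the inactive X chromosome, had a UMI in 0 of its 199 gated cells, against 25 of 56, 135 of 300 and 103 of 246 in the other libraries, in the order WT replicates 1 and 2 and KO replicate 2. This order, with KO replicate 1 before KO replicate 2, holds wherever 4 values are listed.

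The gene levels that chose the cells are given as a description, with no test. Levels are in CPM, the UMIs of a gene counted per 1e6 UMIs summed over a class of cells in 1 library. Htra1 stood at 186, 224, 151 and 202 CPM in the gated cells and at 11.1, 6.91, 11.7 and 9.09 in the other Cdh5+ Gja5+ cells. Nkx2-3 stood at 124, 185, 207 and 173 CPM against 12.2, 8.64, 37.9 and 10.7. In the part of those others without a Runx1 UMI, Nkx2-3 was at 1.65, 1.76, 5.29 and 1.90 CPM. Most gated cells carried both genes, with 64.3%, 72.3%, 73.4% and 70.7% of the gated cells of the 4 libraries.

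The 4 listed markers that the gate did not use are given as a description beside the label of mature arterial endothelium. Tmem100 was at 220, 277, 298 and 227 CPM in the gated cells and at 43.0, 75.9, 85.6 and 75.4 in the other Cdh5+ Gja5+ cells. Vwf was at 563, 572, 482 and 497 CPM against 132, 166, 161 and 177. Ltbp4 was at 142, 121, 65.5 and 105 CPM against 24.4, 30.5, 15.7 and 33.2, with KO replicate 1 lowest in both classes. Pde3a was at 89.0, 120, 81.7 and 105 CPM against 11.1, 10.6, 14.4 and 12.1. In each library the gated cells were higher for all 4, and the classes did not overlap. These markers were picked on these cells, so their levels cannot check the label, and no test was made.

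Shares of cells with a UMI gave the same order once each cell was thinned to 5000 UMIs, which left out at most 3 gated and 18 other arterial cells of any library. Pde3a was then detected in 28.6%, 43.1%, 34.7% and 36.9% of the gated cells and in 4.14%, 3.98%, 7.40% and 5.02% of the other Cdh5+ Gja5+ cells. Without thinning the shares were 60.7%, 65.0%, 59.3% and 69.1% against 11.2%, 8.46%, 16.3% and 9.91%. In germ cells, which should lack the gene and were deeper (median 35728 to 54136 UMIs), the thinned share was 1.39% in KO replicate 2 and 0% in the other libraries. Counting intervals and zeros such as these cover counting error only.

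Cells just outside the threshold already carried Tmem100. Tmem100 in cells with 0 UMIs of Htra1 and Nkx2-3 was at 37.3, 64.0, 67.2 and 66.0 CPM. Just outside the gate, with 1 UMI, it was at 76.4, 178, 171 and 167 CPM. Just inside, with 2 UMIs, it was at 229, 253, 255 and 184 CPM. With 3 to 5 UMIs it was at 149, 234, 238 and 223 CPM, below the level at 2 UMIs in 3 of 4 libraries, and with 6 or more it was at 237, 319, 357 and 247. Cells with 6 or more UMIs made up 66.1%, 47.7%, 48.7% and 48.8% of the gated cells.

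Among the gated cells, those with Nkx2-3 but no Htra1 carried less Vwf and Ltbp4. Vwf was at 25.9, 273, 289 and 249 CPM in these cells and at 675, 609, 802 and 529 in gated cells with Htra1 but no Nkx2-3. Ltbp4 was at 5.17, 46.4, 27.0 and 53.7 CPM in the former and at 207, 132, 43.2 and 138 in the latter. Tmem100 and Pde3a were also lower in the former in each library, though by little in KO replicate 2. Tmem100 was at 0, 178, 236 and 189 CPM in the former and at 314, 288, 307 and 190.1 in the latter. Pde3a was at 0, 50.0, 42.8 and 60.9 CPM against 26.1, 58.5, 86.4 and 65.4. The Nkx2-3-only cells numbered 3, 37, 38 and 36, so WT replicate 1 gives almost no information. The Htra1-only cells numbered 17, 46, 15 and 36, and their Ltbp4 level in KO replicate 1 rests on 9 UMIs. These subsets are slices of the gate and were not tested.

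**Figure D1:**
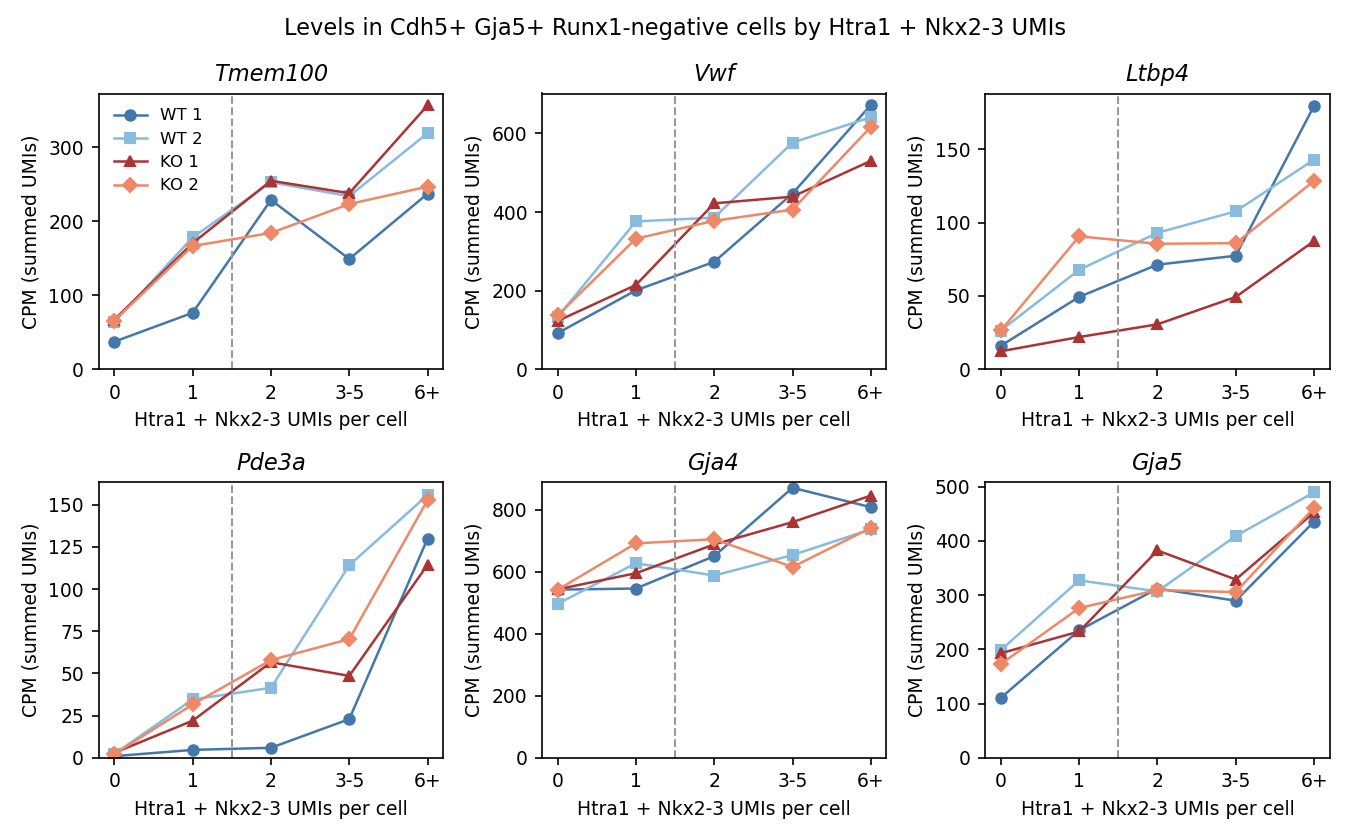
Level in CPM of 6 genes (vertical axis, from 0) in Cdh5+ Gja5+ Runx1-negative cells, grouped by their UMIs of Htra1 and Nkx2-3 together (horizontal axis); 1 line per library, and the dashed line marks the gate. Pde3a went from between 1.003 and 2.96 CPM at 0 UMIs to between 114 and 156 CPM at 6 or more, with KO replicate 1 lowest at 6 or more.

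As a share of all Cdh5+ Gja5+ cells, the gated cells of WT replicate 1 made up 24.8% (95% exact Clopper-Pearson interval 19.3 to 30.9) and those of WT replicate 2 27.5% (24.8 to 30.2). For KO replicate 1 the share was 35.04% (31.1 to 39.1), and for KO replicate 2 it was 27.3% (24.4 to 30.3). KO replicate 1 was thus above the other libraries, and KO replicate 2 lay between the WT libraries. The difference of 5.03 percentage points between KO (31.2% ± 5.49, SD, n = 2) and WT (26.1% ± 1.90, SD, n = 2) did not pass a two-sided exact permutation test (p = 0.667; 2 libraries against 2 cannot go below 0.33). Without KO replicate 1 it was 1.15 points. With Runx1 not restricted, an alternative chosen after seeing the data, the shares were 30.5%, 30.2%, 46.3% and 31.7%, both KO libraries were above both WT libraries, and the difference was 8.63 points (exact permutation p = 0.33, the smallest possible). With cells thinned to 10000 UMIs before gating both KO libraries were also above, at 32.05% and 24.3% against 23.9% and 23.7%, a difference of 4.41 points at the same p. With stricter limits on genes and mitochondrial UMIs, which left 5, 53, 22 and 15 gated cells, the difference changed sign to -0.595 points.

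Of all Cdh5+ cells, the gated cells were 2.76%, 4.23%, 5.61% and 4.17%. The KO mean was 1.39 points higher (two-sided exact permutation p = 0.667). All these shares are shares of sorted cells, and fewer cells of a kind and less RNA per cell cannot be told apart in them.

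**Figure D2:**
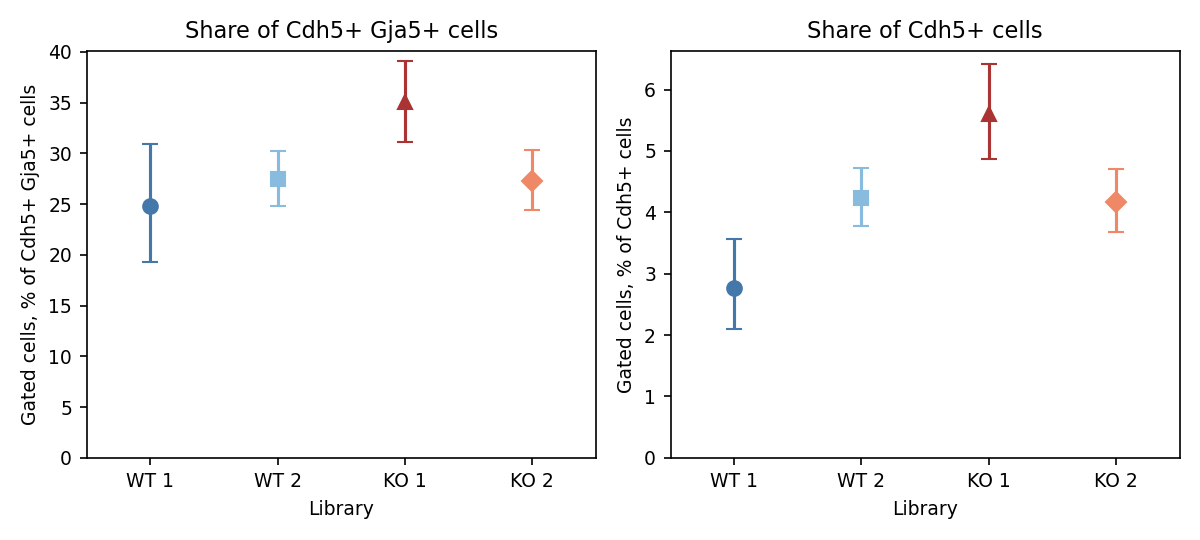
Gated cells as percent of Cdh5+ Gja5+ cells (left) and of all Cdh5+ cells (right) in each library, with 95% Clopper-Pearson intervals. KO replicate 1 is highest in both panels, at 35.04% and 5.61%, and KO replicate 2 lies close to WT replicate 2.

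Cells that met every other condition but had a Runx1 UMI numbered 13, 30, 64 and 40. They were 18.8%, 9.09%, 24.3% and 14% of the Cdh5+ Gja5+ cells with at least 2 UMIs of Htra1 and Nkx2-3. Nkx2-3 was at 121, 139, 151 and 117 CPM in them, in each library below the gated cells. Htra1, at 96.8, 49.1, 39.9 and 72.1 CPM, and Tmem100, at 54.4, 102, 100 and 89.8 CPM, were below the gated cells in every library. At 5000 UMIs Htra1 and Tmem100 were also detected in a smaller share of the Runx1-positive cells than of the gated cells in every library. Gfi1, a repressor that acts with Runx1 when endothelium turns to blood, was at 48.4, 61.8, 81.1 and 53.3 CPM in the Runx1-positive cells and at 2.59, 2.5, 7.92 and 3.58 in the gated cells.

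The question of what else marks the gated cells within arterial endothelium was addressed by comparing their summed UMIs with those of the other Cdh5+ Gja5+ cells of the same library, leaving out the gate genes and listed markers. Genes for elastic fibres and their assembly were higher in the gated cells, led by Fbln5, and so were the arterial Notch genes Hey2 and Jag1 and the vasoactive genes Edn1 and Ace. The glucose transporter gene Slc2a1, the connexin gene Gja1 and the tip cell gene Esm1 were lower. Of 11027 genes tested, 1671 were higher and 1724 lower in the gated cells (edgeR quasi-likelihood test with library as a block, Benjamini-Hochberg adjusted p under 0.05), which is 15.2% and 15.6% of the genes tested (30.8% in either direction). The cells were picked by expression in these same libraries, so the tests show how evenly a difference recurs over 4 libraries. DESeq2 called 1841 genes, 1808 of them shared with the 3395, and the fit without the library block called 1275, 1261 of them shared.

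Elastic fibre genes were among the most increased, led by Fbln5. Fbln5, a fibulin that links elastin to cells, was at 53.3, 74.3, 11.9 and 85.3 CPM in the gated cells and at 1.74, 1.86, 0.260 and 3.58 in the other arterial cells. KO replicate 1 was lowest in both classes, and the classes did not overlap. The log2 change was 4.86, and it was 4.84 without KO replicate 1. Fbln5 passed the low-count filter through its level in the gated cells, so no test result is read from it. Eln, the gene of elastin itself, was at 40.9, 76.4, 22.9 and 68.6 CPM against 3.65, 4.79, 3.89 and 4.40 (log2 change 3.64, SE 0.19, edgeR adjusted p = 2.24e-07). Fbln2, another fibulin, was at 58.0, 59.6, 24.99 and 54.6 CPM against 6.44, 4.92, 3.64 and 7.23. The microfibril gene Fbn1 was more even, at 147, 201, 156 and 170 CPM against 27.3, 32.0, 44.7 and 30.1 (log2 change 2.30, SE 0.16).

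Over the list of elastic fibre and basement membrane genes, 16 of 28 tested were higher and 4 lower. The median log2 change was 0.43, beside 0.00273 over all genes, of which 15.2% were higher and 15.6% lower. The low-count filter keeps a gene with enough counts in either class, so Fbln5 stayed in through the gated cells. The list count and median are therefore given as a description. The higher genes include Mfap5 and Mfap2 of the microfibril and Fbn2, at 3.29, 0.89 and 1.0 on the log2 scale. Lox, the enzyme that cross-links elastin, was at 3.44; it is named after its value was seen. The lower genes were Col15a1, Nid2, Lama4 and Lamc1, also named after their values were seen. Mgp, a matrix protein that binds BMPs and limits calcification, was at 20.7, 79.8, 4.57 and 46.0 CPM against 5.04, 2.46, 0.649 and 2.53. Its log2 change was 4.01. The others alone had too few counts for Mgp to pass the low-count filter, so no test result is read from it.

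Markers of other wall cells, smooth muscle and mesenchyme, were read beside this result. The 7 smooth muscle or mural markers summed to 102, 101, 125 and 192 CPM in the gated cells and to 34.6, 40.1, 200 and 63.1 in the other arterial cells, and neither of the 2 tested was called; without KO replicate 1 both were called higher. The 8 mesenchymal markers summed to 19.2, 60.9, 62.8 and 32.4 CPM against 41.9, 23.9, 54.4 and 25.2, and none of the 4 tested was called. Col1a2 was at 4.66, 10.9, 13.1 and 8.10 CPM and Col3a1 at 9.31, 19.6, 17.7 and 9.06 in the gated cells. Acta2, the smooth muscle actin gene, was at 50.2, 68.0, 61.6 and 124 CPM against 9.22, 12.3, 121 and 22.7: higher in 3 libraries, lower in KO replicate 1, and not called (edgeR adjusted p = 0.389). Without KO replicate 1 it was called higher (log2 change 2.40, edgeR adjusted p = 4.34e-16). The part of such cells in the elastic fibre result was not tested.

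Among the Notch and SoxF genes of arterial identity, 13 of 24 were higher and 4 lower (median log2 change 0.21), beside 15.2% and 15.6% over all genes. The lean toward higher genes was smaller in some alternatives. With cells thinned to 10000 UMIs 8 were higher and 7 lower (median 0.076). Without Runx1-positive cells among the others 10 were higher and 5 lower (median 0.11). With cells thinned to 5000 UMIs after gating, 9 of 22 were higher and 5 lower (median 0.13). Hey2, a transcriptional repressor induced by Notch, was at 65.7, 83.0, 67.4 and 77.9 CPM in the gated cells and at 9.39, 16.6, 17.4 and 18.5 in the others (log2 change 2.17, SE 0.10, edgeR adjusted p = 4.25e-11). Its relative Hey1 was at 152, 141, 157 and 128 CPM against 120, 153, 138 and 159, which overlap, and was not called (log2 change -0.06, edgeR adjusted p = 0.747). The Notch ligand gene Jag1 was at 99.9, 126, 97.2 and 104 CPM against 26.3, 40.4, 31.7 and 37.2 (log2 change 1.59, SE 0.07). Dll4, the ligand that acts earlier in arterial specification, differed by 0.23 only (SE 0.07, edgeR adjusted p = 0.0131) and lost its call without KO replicate 1 (adjusted p = 0.112), with DESeq2 (0.153) and with cells thinned to 5000 UMIs (0.158).

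Bmx, a tyrosine kinase gene of large arteries, was higher by 1.55 on the log2 scale (SE 0.09), and Efnb2, Gja4 and Sox17 by 0.50, 0.50 and 0.34. Cxcr4, the receptor of the chemokine CXCL12 and a gene of growing arterial tips, was at 33.1, 27.1, 15.8 and 15.0 CPM against 39.8, 49.3, 28.6 and 38.0 (log2 change -0.91, SE 0.13, edgeR adjusted p = 0.000125). The gated cells thus combined higher Hey2, Jag1 and Bmx with lower Cxcr4, with the same direction in all 4 libraries.

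Genes of the response to flow and of vascular tone were more often higher than lower, 12 of 21 against 3 (median log2 change 0.48). Over all genes 15.2% were higher and 15.6% lower. DESeq2 called 7 higher and 3 lower, and the fit without the library block 7 and 2. The flow-induced factors Klf2 and Klf4 were higher by 0.67 (SE 0.06) and 0.83 (SE 0.09). Klf2 was at 671, 572, 578 and 613 CPM against 421, 384, 294 and 385. Nos3, the endothelial nitric oxide synthase gene, was higher by 0.50 (SE 0.06). Edn1, the gene of the constrictor endothelin, was at 132, 200, 202 and 197 CPM against 38.1, 58.4, 62.8 and 52.5 (log2 change 1.74, SE 0.06), and Ace, the angiotensin-converting enzyme gene, was higher by 1.99 (SE 0.20). Genes of both constriction and dilation were therefore among those that were higher.

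Of the BMP and ALK1 pathway, 13 of 22 genes were higher and 2 lower (median log2 change 0.27), beside 15.2% and 15.6% over all genes. DESeq2 called 10 higher and 2 lower, and the fit without the library block 8 and 2. The ligand gene Bmp6 was at 16.04, 11.4, 11.6 and 16.7 CPM against 3.13, 3.19, 2.86 and 2.91 (log2 change 2.12, SE 0.19). The inhibitory genes Smad6 and Smad7 were higher by 1.02 (SE 0.08) and 0.65 (SE 0.05), and the target gene Id2 by 0.79 (SE 0.06). Tek, the angiopoietin receptor gene, was at 168, 210, 182 and 191 CPM against 68.0, 75.9, 81.1 and 76.5, a log2 change of 1.27 (SE 0.06).

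**Figure D3:**
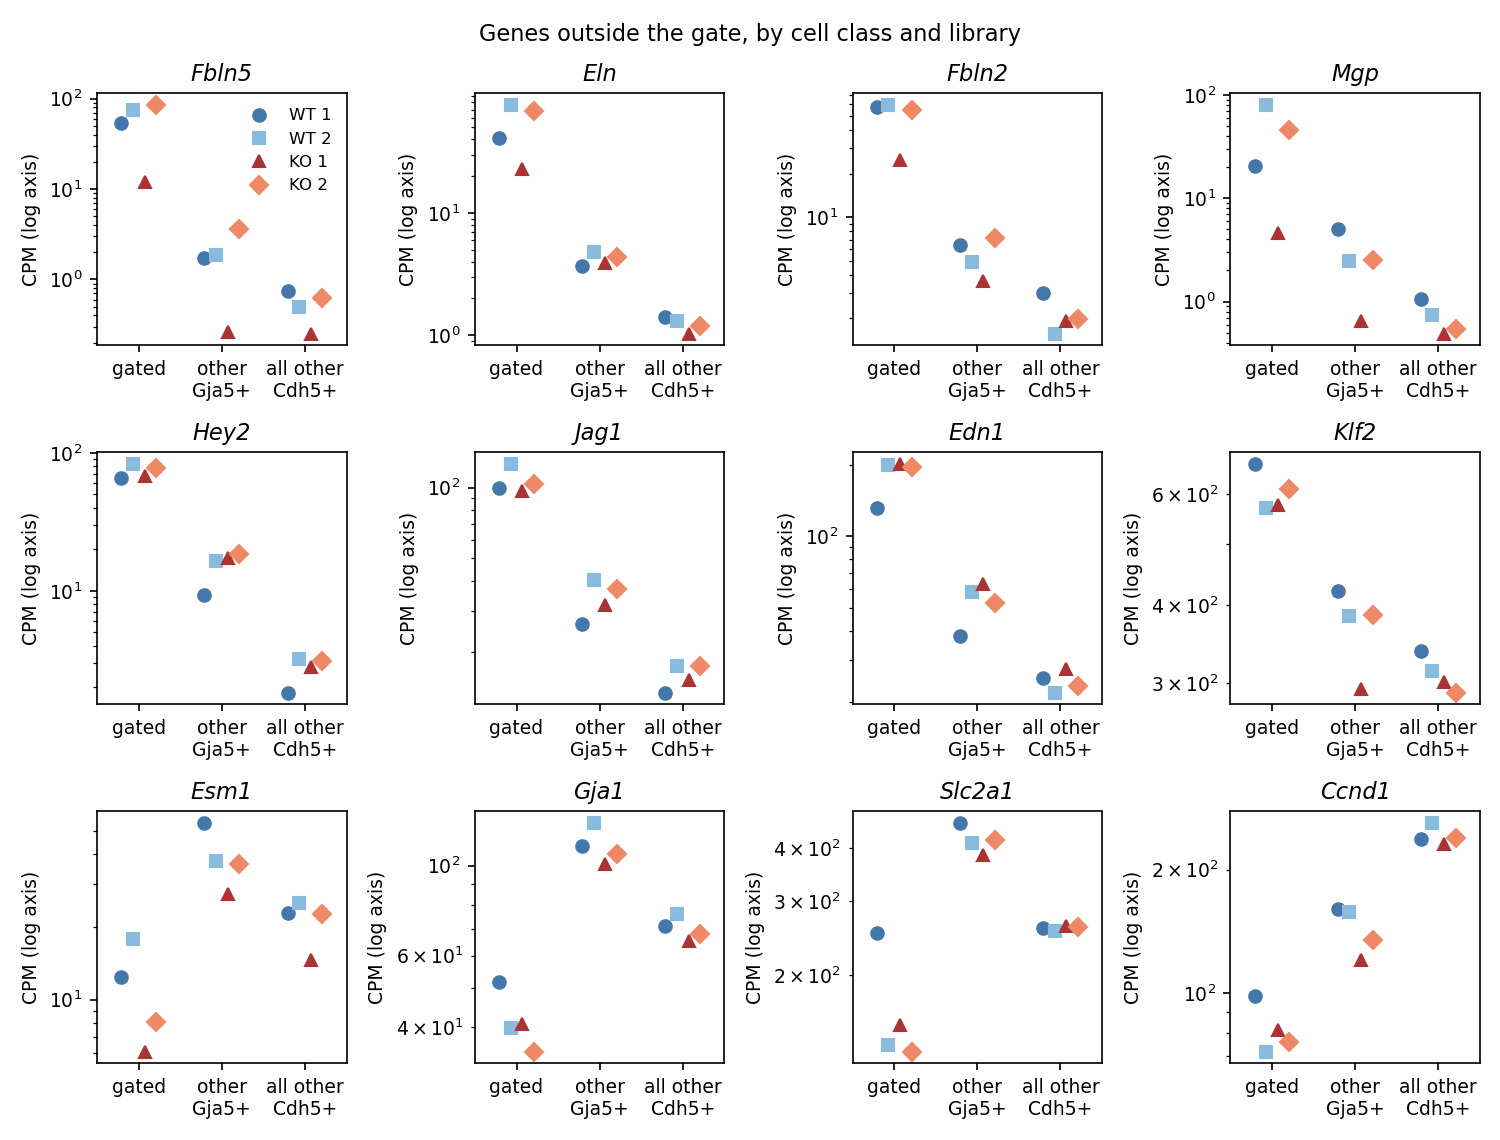
Level in CPM on a log axis of 12 genes outside the gate, in the gated cells, the other Cdh5+ Gja5+ cells and all other Cdh5+ cells, with 1 point per library. Fbln5, Eln, Fbln2, Mgp, Hey2, Jag1, Edn1 and Klf2 are highest in the gated cells of each library, and Esm1, Gja1, Slc2a1 and Ccnd1 are lower there than in the other Cdh5+ Gja5+ cells.

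Junction genes separated as well. Gja1, a connexin gene, was at 51.7, 39.8, 40.8 and 34.8 CPM in the gated cells against 112, 127, 101 and 107 (log2 change -1.52, SE 0.08, edgeR adjusted p = 2.46e-10). Ocln, the tight junction gene of occludin, was at 19.7, 34.1, 36.9 and 25.3 CPM against 6.26, 6.91, 15.3 and 7.23 (log2 change 1.72, SE 0.15). Of 15 connexin and junction genes, 8 were higher and 1, Gja1, was lower, beside 15.2% and 15.6% over all genes. The fit without the library block called 4 higher and 1 lower.

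Several genes outside the lists were also among the largest differences. Isl1, a LIM-homeodomain factor of heart and foregut progenitors, was at 40.9, 67.8, 62.2 and 68.4 CPM in the gated cells and 9.39, 11.2, 13.6 and 9.77 in the others (log2 change 2.44, SE 0.11). Adgrg6, an adhesion receptor gene, was higher by 2.67 (SE 0.10), and Ctsh, the gene of the protease cathepsin H, was at 584, 679, 608 and 623 CPM against 90.6, 104, 173 and 96.1. P4ha3, a subunit gene of the collagen prolyl hydroxylase, was higher by 3.35 (SE 0.12), Pi16 by 3.03 (SE 0.20), Gkn3 by 2.79 (SE 0.28) and Emp2 by 2.25 (SE 0.12). Gkn3 was lowest in KO replicate 1, at 10.4 CPM in the gated cells against 29.6 to 66.8 in the other libraries.

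Several tip cell and venous genes were lower. Esm1, a proteoglycan gene of sprouting tips, was at 12.4, 17.7, 6.10 and 8.10 CPM against 53.8, 37.3, 27.4 and 36.3 (log2 change -1.79, SE 0.18, edgeR adjusted p = 4.87e-05). Apln, the apelin gene of tip cells, was also lower (log2 change -1.0, SE 0.17). Nr2f2, the factor of venous identity, was at 44.5, 45.0, 29.3 and 40.3 CPM against 70.8, 60.2, 37.5 and 47.3 (log2 change -0.46, SE 0.08). Of 5 sprouting markers 3 were lower, Cd34 was higher, and Angpt2, an angiopoietin gene of tip cells, was not called (log2 change -0.03, edgeR adjusted p = 0.964). In the list of venous and capillary genes 7 of 17 were lower and 2, Plvap and Cd34, higher, beside 15.6% and 15.2% over all genes. The fit without the library block called 3 lower and 2 higher.

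Slc2a1, the main glucose transporter gene of endothelium, was at 251, 137, 152 and 131 CPM in the gated cells and at 460, 412, 387 and 420 in the other arterial cells. The log2 change was -1.44 (SE 0.17, edgeR adjusted p = 0.00833); without WT replicate 2 it was -1.35 and not called (adjusted p = 0.0750). Of 15 glycolysis genes tested 12 were lower and none higher, with a median log2 change of -0.51; Eno1, Ldha and Gapdh were at -0.55, -0.51 and -0.48. The fit without the library block called 7 of these glycolysis genes. Over all genes 15.2% were higher and 15.6% lower. Of 21 genes of cholesterol and lipid handling, 13 were lower and 1 higher (4 and 0 without the block), among them Fdps and Idi1 at -0.59 and -0.48.

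Calls for cell cycle genes depended on how cells were thinned. Ccnd1, the cyclin gene of the G1 phase, was at 98.3, 71.8, 81.4 and 75.8 CPM against 161, 158, 120 and 135 (log2 change -0.88, SE 0.08, edgeR adjusted p = 2.42e-06). In the S phase list 22 of 30 genes were lower and none higher, and in the G2 and mitosis list 11 of 32 were lower. Over all genes 15.6% were lower. Summed UMIs weight deep cells more. With each cell thinned to 5000 UMIs after gating, 4 S phase genes were lower and none higher. Of the G2 and mitosis genes 0 were lower and 1 higher. The S phase median was then -0.17, against -0.31 with all UMIs, and the G2 and mitosis median -0.11, against -0.12. Over all genes this fit called 1997, against 3395 with all UMIs. Thinning to 10000 UMIs before gating left out shallower cells and changed which cells were gated. In that fit 8 G2 and mitosis genes were higher and 0 lower, and Mki67 stood at 0.49, against -0.05 with all UMIs. The weight of deep cells, lost counts and the changed gate were not tested apart. No direction is therefore given for proliferation between the gated and the other arterial cells.

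The share of cells with a Mki67 UMI, a marker of cycling cells, was 21.4%, 22.1%, 24.5% and 20.1% in the gated cells at 5000 UMIs and 23.7%, 22.8%, 24.9% and 22.7% in the other arterial cells. In Cdh5+ cells without Gja5 it was 39.3%, 43.5%, 39.9% and 40.9%. Without thinning the 3 classes had 31.0% to 42.9%, 36.4% to 47.2% and 64.7% to 72.4%.

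**Figure D4:**
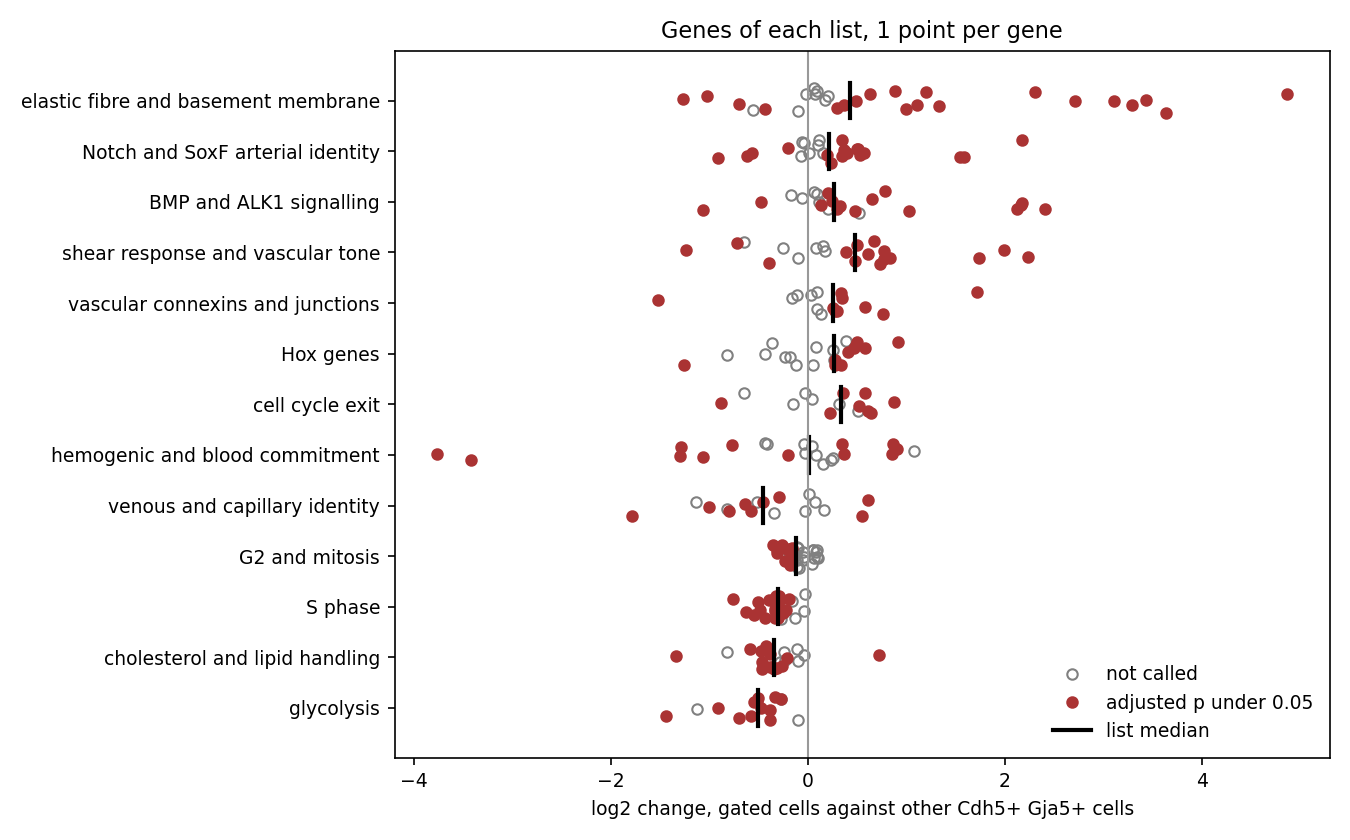
Log2 change of each tested gene (1 point) in 13 gene lists, gated cells against other Cdh5+ Gja5+ cells; filled points have an edgeR adjusted p under 0.05 and bars are list medians. The elastic fibre list reaches 4.86 at Fbln5, and the glycolysis list has 12 filled points, all below 0; the S phase and mitosis lists change with the thinning of cells.

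Genes of the turn to blood needed a comparison without Runx1 on either side, since the gate removes Runx1-positive cells from the gated side only. With all other Cdh5+ Gja5+ cells, 5 of 22 genes of the hemogenic and blood commitment list were higher and 7 lower, and Gfi1 was lower (log2 change -1.29, SE 0.22). Against the 1753 of those 1987 cells without a Runx1 UMI, 13 of the 18 list genes that passed the low-count filter were higher and 2 lower, with a median log2 change of 0.90. Over all 10865 genes in that comparison 17.3% were higher and 18.9% lower (36.3% in either direction), with a median of 0.00425. The filter keeps a gene with enough counts in either class. Genes nearly absent from the others thus stayed in through the gated cells, so the list count and median are given as a description. Gfi1 was then at 2.59, 2.5, 7.92 and 3.58 CPM against 0.207, 0.0733, 0.730 and 0.517. These Gfi1 levels rest on 5, 11, 26 and 15 UMIs in the gated cells and 1, 1, 4 and 6 in the others, so they are given as a description. Gfi1 was in this fit through its level in the gated cells, and no test result is read from it.

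Gata2, a factor needed for blood stem cells, was at 52.8, 64.1, 60.3 and 60.3 CPM in the gated cells and 20.5, 24.6, 28.7 and 25.4 in the Runx1-negative others (log2 change 1.2). Cd44, a hyaluronan receptor gene of hemogenic and arterial endothelium, was at 38.3, 48.4, 60.3 and 46.96 CPM against 16.9, 17.2, 22.8 and 19.1 (log2 change 1.30). Adgrg1, a receptor gene of early blood stem cells, was higher by 0.65 in this comparison and lower in the one with Runx1-positive cells (log2 change -1.07). Kit, the receptor gene of blood progenitors, was lower in both (log2 change -0.48 and -0.77). Cells in which Runx1 is present but went undetected would be counted as gated; their number was not tested.

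RNA of other blood lineages was low in the gated cells. The 9 erythroid markers summed to 188, 80.3, 162 and 42.2 CPM in the gated cells and to 4608, 1185, 928 and 58.1 in the other arterial cells. Globin genes such as Hba-a1 and Hbb-bt therefore lead the lower genes (log2 change -4.32 and -3.52), but with doublet calls left out neither was called. Of the 6 macrophage or myeloid markers, Ptprc, Adgre1 and C1qa were at 0 in the gated cells, and the 6 summed to 3.11, 1.14, 3.96 and 2.62 CPM. The 5 megakaryocyte markers summed to 8.80, 5.68, 3.66 and 5.96 CPM.

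Hox genes, which record position along the body, were higher for 9 of 21 tested and lower for 1 (2 and 1 with DESeq2), with a median log2 change of 0.27, with Hoxa7 higher by 0.47 and Hoxa5 by 0.41. Over all genes 15.2% were higher and 15.6% lower. DESeq2 called 1850 of 11036 genes in either direction, gate genes and listed markers included, and its Hox calls were no more frequent than that. Hoxd9 was lower, at 5.69, 6.59, 3.05 and 2.86 CPM against 10.1, 12.5, 7.92 and 9.91. Endocardial genes were mixed: of 9 tested 5 were higher, among them Gata6 by 1.41 and Npr3 by 0.70, and Hapln1 was lower (log2 change -0.19). Gata4, a defining endocardial factor, was at 2.59, 4.32, 1.83 and 2.86 CPM in the gated cells. Of 16 genes of haemostasis and endothelial storage granules 7 were higher and 3 lower. Of 22 genes induced by dissociation or early stimulation 4 were higher and 1 lower, or 22.7% in either direction, below the 30.8% over all genes.

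Against all other Cdh5+ cells, 3349 of 13897 genes were higher and 3738 lower, or 24.1% and 26.9% (51% in either direction). Part of this contrast follows from Gja5 in the gate. Elastic fibre and basement membrane genes were higher for 24 of 31, with Fbln5 at 6.61 on the log2 scale. All 30 S phase genes and all 32 G2 and mitosis genes were lower, with median log2 changes of -0.83 and -0.66. With cells thinned to 10000 or to 5000 UMIs, 30 S phase genes remained lower and 29 and 30 of the G2 and mitosis genes, and none was higher. Ccnd1 was at 81.8 ± 11.7 CPM in the gated cells and 242 ± 12.8 in all other Cdh5+ cells (SD, n = 4 libraries). Nr2f2 was lower (log2 change -1.49) and Hey2 higher (4.62).

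The effect of losing miR-223 was asked within the gated cells, comparing the KO libraries with the WT libraries. Of 10767 genes tested, 1 was higher (0.00929%) and 2 were lower (0.0186%; 0.0279% in either direction) at an edgeR adjusted p under 0.05, and 75 and 151 at an unadjusted p under 0.05. Wdfy1, which encodes an endosomal adaptor protein (GRCm38, chromosome 1, 79702262 to 79776143, minus strand), stood at 13.5 and 14.8 CPM in the WT libraries against 56.7 and 56.5 in the KO libraries. Its log2 change was 2.0 (SE 0.22, edgeR adjusted p = 0.0130), and the groups did not overlap. Mxra7, a membrane protein gene on chromosome 11 (116803062 to 116828046, minus strand), stood at 47.6 and 34.3 CPM (WT) against 10.97 and 8.34 (KO) (log2 change -2.06, SE 0.27, edgeR adjusted p = 0.0288). Rnaset2b, a ribonuclease gene on chromosome 17 (6970634 to 7011299, plus strand), stood at 11.9 and 11.1 CPM (WT) against 0.914 and 1.19 (KO) (log2 change -3.37, SE 0.44, edgeR adjusted p = 0.0288). Rnaset2b has a near-identical copy, so how reads were divided between the copies is uncertain.

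These differences were not shown to be particular to the gated cells. In the other Cdh5+ Gja5+ cells Wdfy1 stood at 10.96 and 10.2 CPM (WT) against 54.4 and 55.7 (KO), and the test of the difference between the classes did not pass (edgeR interaction adjusted p = 1). That test called 3 of 11515 genes, or 0.0261%, all higher in direction and all globin genes. Mxra7 was at 53.2 and 55.0 against 14.5 and 16.4 there, and Rnaset2b at 9.74 and 10.0 against 0.909 and 0.745. The call of Wdfy1 was lost without either KO library (adjusted p = 0.213 without KO replicate 1 and 0.103 without KO replicate 2), where its log2 change was 2.01 and 1.99. Mxra7 (adjusted p = 0.232 and 0.334) and Rnaset2b (0.232 and 0.154) lost their calls in the same fits, and both did with doublet calls left out (0.0722 each). With the replicate number as a block, Rnaset2b was not called (adjusted p = 0.122). With 1 KO library left, 0 genes passed without KO replicate 1 and 1 without KO replicate 2. Without WT replicate 1, 32 genes passed, and without WT replicate 2, 97, all 3 named genes among them each time; a lone library is then assumed to vary like the other group.

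**Figure D5:**
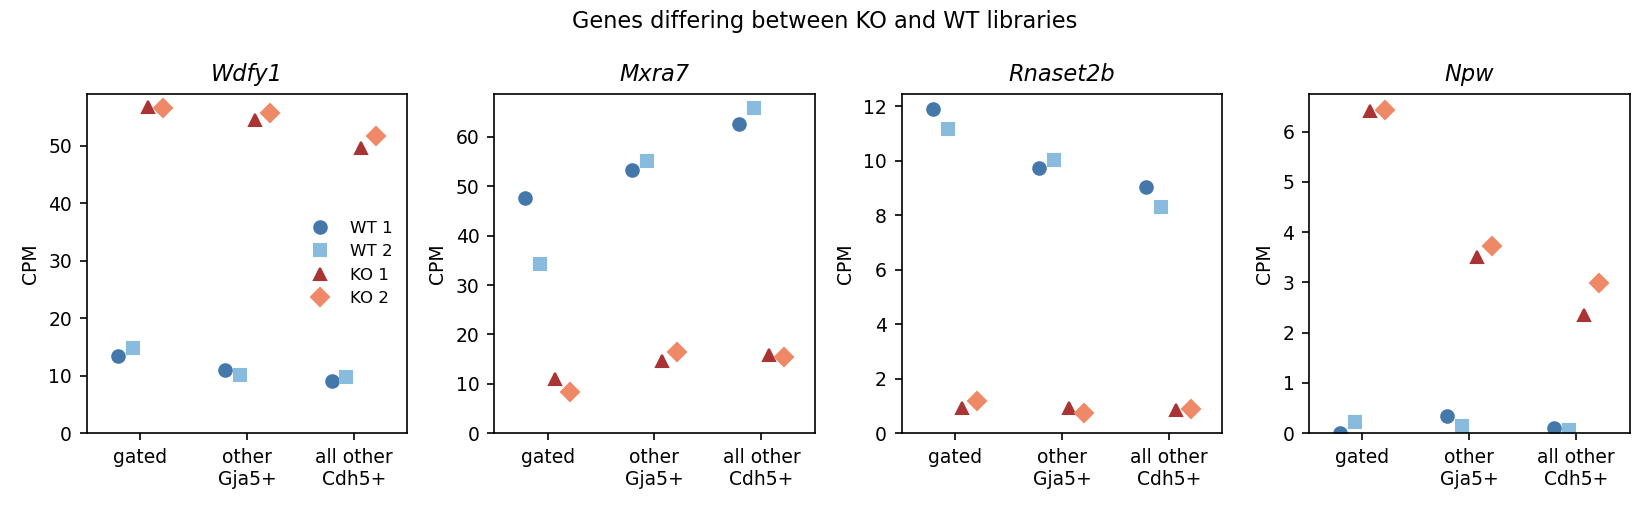
Level in CPM of Wdfy1, Mxra7, Rnaset2b and Npw in the gated cells, the other Cdh5+ Gja5+ cells and all other Cdh5+ cells, with 1 point per library. The KO libraries (red tones) lie apart from the WT libraries (blue tones) in all 3 classes; Npw was not called.

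The next genes by raw p were not called. Npw, a neuropeptide gene, stood at 0 and 0.227 CPM (WT) against 6.40 and 6.44 (KO) (0 and 1 against 21 and 27 UMIs; edgeR adjusted p = 0.0970). Rps2, a ribosomal protein gene, stood at 4377 and 3973 CPM (WT) against 2518 and 2214 (KO) (log2 change -0.81, adjusted p = 0.154; called by DESeq2, adjusted p = 0.00486). Pi16 stood at 32.6 and 42.7 CPM (WT) against 74.4 and 76.0 (KO) (edgeR adjusted p = 0.454). Npw (24657330 to 24658457, minus strand), Rps2 (24718116 to 24721929, plus strand) and Pi16 (29317680 to 29330593, plus strand) lie on chromosome 17, as does Rnaset2b. Whether these differences go with position rather than with miR-223 was not tested.

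None of the arterial and matrix genes described above was called between genotypes. Hey2 stood at 65.7 and 83.0 CPM (WT) against 67.4 and 77.9 (KO) (log2 change -0.03, SE 0.19), and Jag1 at 99.9 and 126 against 97.2 and 104 (-0.17, SE 0.17). Tmem100 differed by 0.08 (SE 0.18), Htra1 by -0.21 (SE 0.18) and Ltbp4 by -0.60 (SE 0.22). Fbln5 had too wide a spread between the KO libraries, 11.9 and 85.3 CPM, to judge a difference (log2 change -0.37, SE 1.09); it was 0.43 without KO replicate 1 and -2.43 without KO replicate 2. Of 20 described miR-223 targets tested, none was called, and 6 had a higher and 14 a lower point estimate in KO (median log2 change -0.13, beside -0.00599 over all genes). In the S phase list 29 of 30 point estimates were higher in KO, with a median of 0.25, beside 48.7% of point estimates over all genes. None was called, and leaving out any 1 library left 26 to 27 higher. Such genes can vary together, so these are not 30 separate results. The host transcript of miR-223, F630028O10Rik, had 0.0, 0.227, 0.914 and 1.67 CPM in the gated cells, too few UMIs for a test, and a 3' tag outside the deleted part would not check the genotype.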

How the data were processed

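Single-cell RNA libraries from 4 samples (2 WT, 2 KO) were analysed. The authors deposited UMI counts per gene and cell barcode, unnormalised, made with Cell Ranger 3.1.0 per the file headers; Seurat 4 is named in the submitters' processing notes, and no genome build is named (not given in the sources used here). The tables held 3917, 11186, 6119 and 10299 barcodes and 95158639, 181682389, 109713066 and 167542930 UMIs over 31053 genes. Gene positions are from GENCODE (GRCm38), by gene ID, for 31011 of these.

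Cells were filtered and gated as the report states, and UMIs were summed per library and class, since cells are not replicates. Sums were tested with edgeR 4.0.16 (TMM, filterByExpr, robust quasi-likelihood, Benjamini-Hochberg) in R 4.3.3, with library as a block between classes; the 5 gate genes and 4 other listed markers were not tested there. Shares were compared by exact permutation with scipy 1.17.1. Doublets, scored against simulated ones, were kept in the reported values and left out in an alternative. The scripts were tested on simulated data. Alternatives were RLE factors, DESeq2 1.42.0, no low-count filter, other gate and cell limits, thinned cells, no block, Runx1-positive cells left out, and each library left out. Removing the Runx1 limit for shares, and thinning to 5000 UMIs after gating for gene tests, were chosen after seeing the data.

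Named genes were the gate genes and listed markers; the 12 largest changes per direction against other Cdh5+ Gja5+ cells (adjusted p under 0.05, mean of at least 20 CPM, same direction in 4 libraries); 6 per direction against all other Cdh5+ cells; the KO and interaction calls or the 3 smallest p; up to 5 genes per list; and a short set named outright. The members and lists were chosen with earlier results of these data known. The labels give replicate numbers and no statement of what they pair.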

Additional observations from a re-analysis of the deposited data

Results flagged for a closer look

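The difference between the gated cells and the other Cdh5+ Gja5+ cells was itself compared between genotypes, and 3 of 11515 genes (0.0261%) passed, all of them globin genes. The log2 change was larger in KO than in WT by 2.73 for Hbb-bh1 (edgeR interaction adjusted p = 0.00667), by 4.12 for Hba-a2 (0.0108) and by 3.35 for Hba-x (0.0438). With doublet calls left out, 0 genes passed in edgeR, with 132 higher and 220 lower at an unadjusted p under 0.05. The 9 erythroid markers summed to 4608 and 1185 CPM in the other arterial cells of the WT libraries and to 928 and 58.1 in those of the KO libraries, beside 188, 80.3, 162 and 42.2 in the gated cells.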

How the results depend on the processing

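The share of Cdh5+ Gja5+ cells differed by -0.595 points, and that of Cdh5+ cells by 0.109, when cells needed 2000 genes and less than 5% mitochondrial UMIs; leaving out 1 library gave 1.15 to 8.91 and 0.658 to 2.13. Between KO and WT, 16 genes passed without the low-count filter, 1 with doublet calls left out, 1 with cells thinned to 10000 UMIs, and 0 to 97 with 1 library left out. With the replicate number as a block 3 passed, 2 of them shared; same-numbered libraries had deviations correlated at 0.188, and the labels do not say that numbers pair libraries. Against other Cdh5+ Gja5+ cells, DESeq2 called 1841 genes, thinning to 5000 UMIs 1997 and the fit without the library block 1275. The interaction gave 1 gene with DESeq2, 19 without the filter, 0 without doublet calls, 6 with at least 3 UMIs of Htra1 and Nkx2-3, and 8 to 47 with 1 library left out.

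Without Runx1-positive cells among the others, Gfi1, Itgb3 and Adgrg1 turned to 3.31, 1.05 and 0.65; the Gfi1 value rests on few UMIs in the others. With cells thinned to 10000 UMIs, Mki67, Top2a, Ccnb1, Aurka, Ung, Ube2c, Ccna2, Gmnn, Lyve1, Mcm6 and Cks2 turned to 0.487, 0.405, 0.237, 0.197, 0.186, 0.0725, 0.0494, 0.0335, 0.0176, 0.0159 and 0.0019, and Icam2 to -0.0552. Of the single named genes against other Cdh5+ Gja5+ cells, 1844 values over all alternatives kept direction and call, 192 lost the call, 46 gained it and 15 turned. The cause was not tested. With 56 gated cells in WT replicate 1, low genes there rest on few UMIs.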
